A study of Orbilia oligospora with 2 samples.

Results

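The genes tof1, H4.1 and grrA of Arthrobotrys (Orbilia) oligospora, a fungus that traps nematodes, were examined for binding of AoMbp1. They were taken from the peak annotation by their symbols, and make up 3 of the 18 genes to which the authors assigned an AoMbp1 peak. Each gene had 1 peak, so 3 of the 150 peaks are described. The genes were chosen from this measured peak list, and their enrichment is therefore given as a description without a test.

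DNA affinity purification sequencing (DAP-seq) compared 1 AoMbp1 library with 1 input library. In the AoMbp1 library, AoMbp1 fused to a Halo tag and expressed from a plasmid had bound fragments of genomic DNA from the hyphae of the fungus. The input library was made of the genomic DNA without this selection. Neither group had a replicate, and binding by the Halo tag without AoMbp1 was not analysed here. Binding was thus measured on purified DNA outside the cell, and transcript levels of the 3 genes were not analysed here.

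Mbp1 is the DNA-binding subunit of MBF, which it forms with Swi6 in budding yeast. MBF binds the element ACGCGT in promoters and drives genes for DNA synthesis as cells pass from G1 into S phase. By their names, the 3 genes correspond to proteins of different steps of that passage or of S phase itself. Tof1 of budding yeast travels with the replication fork, holds stalled forks together and helps to activate the replication checkpoint. Histone H4 is a core histone that packages newly made DNA. The name grrA is that of the Aspergillus nidulans counterpart of yeast Grr1, the F-box protein of an SCF ubiquitin ligase that marks G1 cyclins for destruction.

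The function terms in the authors' table named replication or the cell cycle for tof1 and grrA, and the nucleosome for H4.1. The terms of tof1 were DNA replication, cell cycle and regulation of cellular process, with intracellular organelle as a component. Its description was topoisomerase 1-associated factor 1. The tof1 gene was the only one of the 18 assigned genes with the process term DNA replication. The terms of grrA were cell cycle, cellular protein metabolic process, cellular response to stimulus and a reproductive process of single-celled organisms. Its components were the cullin-RING ubiquitin ligase complex, cytoplasm and intracellular organelle. The grrA gene alone among the 18 was placed in the KEGG pathways for the yeast cell cycle and for ubiquitin-mediated proteolysis. H4.1 carried no term for replication or the cell cycle. Its terms were nucleosome, nucleosome organization, histone lysine methylation, sexual sporulation, RNA biosynthetic process, nucleic acid binding, protein dimerization, a peptidase activity and intracellular membrane-bounded organelle. Its description was a partial histone H4 of another fungus, Tolypocladium capitatum. Of the 18 genes, 8 had any GO term and 3 a KEGG pathway.

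The peaks lay on different sides of the 3 genes. The tof1 gene (AOL_s00043g1) occupies positions 11608 to 15484 of the plus strand of scaffold NW_011645600.1 in RefSeq assembly AOL24927 1.0, with 12 exons over 3877 bp. Its peak spanned positions 10317 to 10602 (286 bp), with the summit at 10454, or 1154 bp upstream of the gene start. The near edge of the peak was 1006 bp from the gene, and the authors classed it as a promoter peak at 1 to 2 kb.

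The H4.1 gene (AOL_s00117g1) is short, with 3 exons over 469 bp, and lies at positions 2283 to 2751 of the minus strand of NW_011645674.1. Its peak was at positions 719 to 1003 (285 bp), with the summit at 819. Because the gene is read from the minus strand, this is its 3' side. The summit was 1464 bp beyond the 3' end and 1932 bp from the gene start, and the authors classed the peak as downstream. The 1077 bp between the start of H4.1 and the next gene, AOL_s00117g2, held no peak.

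The grrA gene (AOL_s00054g338) has 4 exons over 1970 bp, at positions 1093149 to 1095118 of the plus strand of NW_011645611.1. Its peak at positions 1092198 to 1092394 (197 bp) had the summit at 1092305, or 844 bp upstream of the gene start, and was classed as a promoter peak within 1 kb. The summit lay in a stretch of 1663 bp between grrA and AOL_s00054g337, almost at its middle. It was 820 bp from the nearest edge of AOL_s00054g337, so grrA was not the nearest gene by this measure. For tof1 and H4.1 the assigned gene was also the nearest. This was bound to be so, because their peaks had annotated genes on only 1 side.

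**Figure D1:**
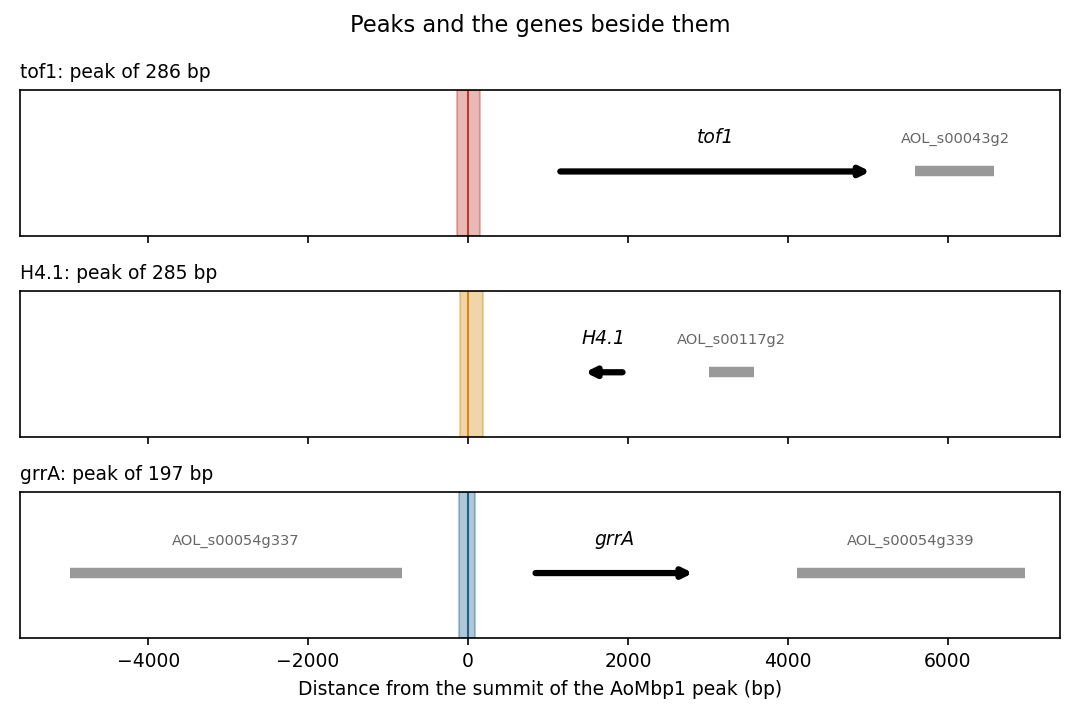
Map of the 3 peaks with tof1, H4.1 and grrA (black arrows, pointing in the direction of transcription) and their neighbours (grey bars, strand not shown). The x axis is the distance from the peak summit in bp, and the coloured band is the peak. The summits are 1154 bp upstream of tof1 and 844 bp upstream of grrA, but 1464 bp beyond the 3' end of H4.1.

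By these classes 2 of the 3 genes had a promoter peak, beside 10 of all 150 peaks (6.67%) and 9 of the 25 peaks (36.0%) outside the 2 scaffolds described next. Only peaks with an assigned gene hold such a class, and all 3 have one by choice. Peaks with an assigned gene numbered 21 of the 150, with 10 promoter peaks, and 16 of the 25, with 9. Nothing is therefore read from the count of 2. It also depended on the length allowed to a promoter. With 2 kb upstream tof1 and grrA counted, with 1 kb only grrA, and with 500 bp neither.

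The positions along the scaffolds also differed. The tof1 gene is the first of 827 annotated genes of its scaffold and H4.1 the first of 77, so both peaks lay in sequence without annotated genes before the outermost gene. Counted from the scaffold's first base, the H4.1 peak began at position 719 and the tof1 peak at position 10317. The grrA gene is number 338 of 994, and its peak lay between genes, deep inside the scaffold. A place outside the outermost genes was common. Sites of the AT-rich motif, described below, were held by 16 of the 25 peaks outside the 2 scaffolds of raised input background. Of these 16 peaks, 14 lay outside the outermost genes, with tof1 and H4.1 among them, and 2 between genes, with grrA among them. The place of peaks without such a site was not tabulated. Each of the 3 peaks was the only peak of its scaffold. The share of other peaks that were alone on theirs was not counted, so this is not read as particular to the 3 genes.

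The H4.1 and tof1 peaks were strong, and the grrA peak was weak. The pileup, the height of stacked reads or fragments at the summit, was 193 at H4.1, against a recovered input background of 24.8. It was 158 at tof1, against the same background of 24.8, and 54 at grrA, again against 24.8. The authors' fold enrichment over input was 7.51 at H4.1, 6.15 at tof1 and 2.13 at grrA.

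Exact Poisson intervals (95%, counting error only) of the pileup were 167 to 222 at H4.1, 134 to 185 at tof1 and 40.6 to 70.5 at grrA. At the fixed background they correspond to enrichments of 6.49 to 8.64, 5.24 to 7.19 and 1.61 to 2.77. The intervals of H4.1 and tof1 overlapped, and that of grrA lay below both. These intervals hold only if the stacked reads are separate molecules. Of the mapped reads, 85.23% were duplicates with AoMbp1 and 10.58% with input, and no source used here says how the authors treated duplicates.

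All 3 peaks had the lowest background found at any peak, to within 0.01, which 22 of the 150 shared. All 22 were among the 25 peaks outside the 2 scaffolds of raised input background. At such peaks the fold enrichment is set by the pileup alone. The caller may have set this value as a minimum, in which case the local input at the 3 genes was at or below it.

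Among all 150 peaks, the H4.1 peak ranked 4 by fold enrichment, tied with 1 other peak. The tof1 peak ranked 7, and the grrA peak ranked 27, again tied with 1 other. A fold enrichment of at least 5 was reached by 2 of the 3 peaks, beside 9 of all 150 peaks (6.00%). Since the genes were picked from this list, nothing is read from that count.

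The comparison with all peaks is uneven, because 125 of the 150 lay on 2 scaffolds with raised input background. Those 125 peaks had pileups of 248 to 1018 over backgrounds of 85.9 to 787, and a median fold enrichment of 1.52. Every one of them had a higher pileup than any of the 3 genes' peaks. By pileup the 3 genes therefore ranked 129 (H4.1), 132 (tof1) and 146 (grrA) of 150.

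Set against the 25 peaks outside those scaffolds, of which 9 reached 5-fold (36.0%), H4.1 again ranked 4, tof1 7 and grrA 20. The other 22 of these peaks ranged from 1.56- to 13.6-fold, with a median of 3.23. H4.1 and tof1 thus lay in the upper part of this range and grrA in the lower part.

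The deposited -log10 q-values gave a wider spread. They were 96.4 at H4.1, 66.7 at tof1 and 4.06 at grrA. By this value H4.1 ranked 4 and tof1 8 of 150, but grrA ranked 135. The 125 peaks on the scaffolds of raised background had -log10 q-values of 1.36 to 69.4 with a median of 9.22, above the value of grrA.

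**Figure D2:**
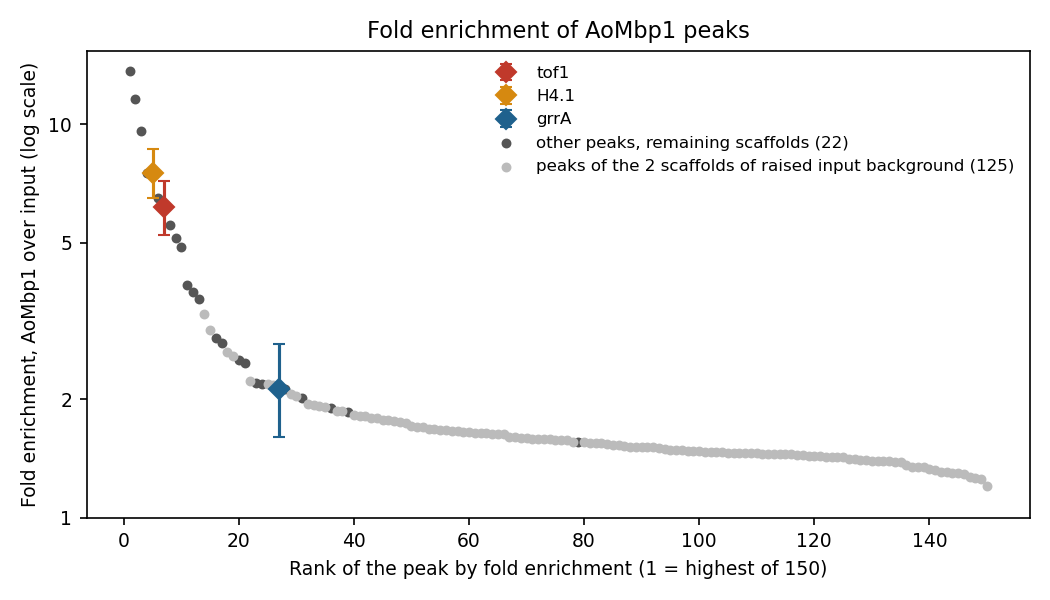
Fold enrichment of AoMbp1 over input (y axis, log scale) for all 150 peaks in order of rank (x axis). Diamonds mark tof1, H4.1 and grrA, with bars for the Poisson interval of the pileup at a fixed background. H4.1 (7.51) and tof1 (6.15) stand on the steep part of the curve, and grrA (2.13) where it flattens among peaks of the 2 scaffolds of raised input background.

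The peaks closest in enrichment were compared with each member. The H4.1 peak had the same pileup and fold enrichment as peak 1, assigned to AOL_s00004g1, which encodes a protein with TPR repeats. That peak also lay on the 3' side of its gene and began at position 637 of its scaffold. Next above H4.1 stood peak 132 (9.60-fold), which has no assigned gene, and next below Dctn5 (AOL_s00006g1; 6.50-fold), named for a subunit of dynactin.

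Dctn5 was also the peak next above tof1, and next below was AOL_s00109g209 (5.53-fold), a DUF887 protein. Both were classed as promoter peaks at 1 to 2 kb, and both lay outside the outermost genes of their scaffolds, as tof1 did. Their pileups were 167 and 142, and both values fell inside the Poisson interval of tof1. The order of these 3 peaks is thus within counting error.

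The grrA peak was tied with peak 138, which has no assigned gene. In the full ranking its neighbours were peaks 110 (2.18-fold) and 112 (2.06-fold) of a scaffold of raised background. Among assigned genes outside those scaffolds, the nearest in enrichment were esyt3 (AOL_s00110g1; 2.19-fold), described as a C2 domain protein, and tbpA (AOL_s00083g516; 2.21-fold), a regulatory subunit of the 26S proteasome. The tbpA peak resembled that of grrA in pileup (56) and in lying 765 bp upstream of its gene. The esyt3 peak reached its enrichment from a pileup of 131 over a background of 59.3.

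Sites of the AT-rich motif, the first of the authors' 2 motifs, were present in all 3 peaks, but in very different numbers. The motif is 15 bp long and rich in T on the strand on which it is matched. The H4.1 peak held 11 of its sites, the tof1 peak 9 and the grrA peak 1. Such a site was found in 49 of all 150 peaks (32.7%) and in 16 of the 25 (64.0%). The second, GC-rich motif had no site in any of the 3 peaks. The authors derived both motifs from the same peaks, so the presence of sites is no independent support for binding.

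The 11 sites of H4.1 all lay within 49 bp of the summit, measured from the centre of each site. Of these, 10 shared bases in a run of 72 bp, and the remaining site directly adjoined it, so that 87 bp or 30.5% of the peak were covered. Their match scores ran from 10.2 to 17.0 with a median of 14.1. The 3 sites over the summit scored 12.9, 16.9 and 14.8.

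At tof1, 8 of the 9 sites formed a run of 66 bp around the summit. It reached from 40 bp before to 25 bp after the summit. The site with the best score of all 143 sites of this motif (18.6, motif q-value 0.00658) lay in this run, centred 12 bp from the summit on the side of the gene. The ninth site, with a score of 14.3, stood apart at 125 bp from the summit and was the only tof1 site on the plus strand. It was also the only site of the 3 peaks written wholly in lower case in the authors' table, where 72 of the 143 sites are. What the case stands for is not stated in the sources at hand.

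The grrA site covered the summit but matched less well. Its score of 12.1 ranked 93 of the 143 sites, in a tie with a site of the H4.1 peak, and its motif q-value was 0.0567. With sites limited to a q-value under 0.05, H4.1 kept 9 sites and tof1 7, and grrA had none, beside 89 of the 143 sites of the motif over all peaks.

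**Figure D3:**
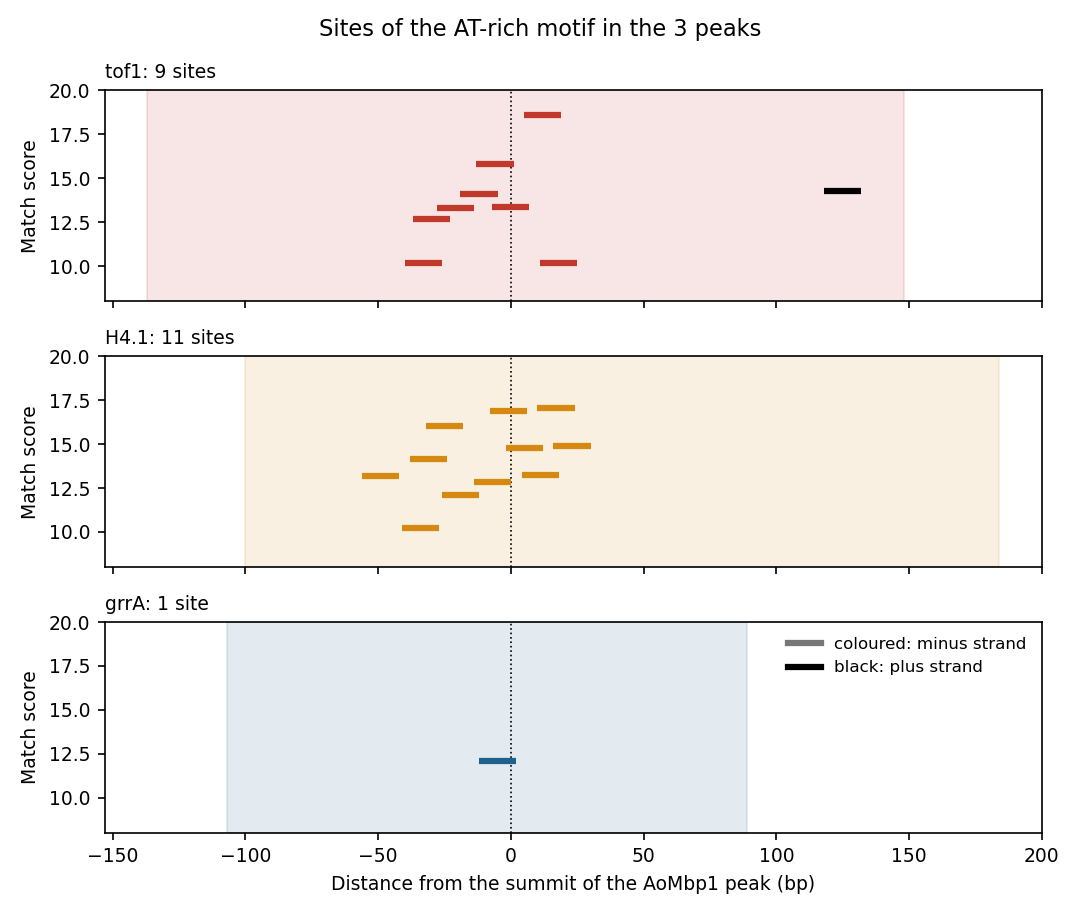
Sites of the AT-rich motif in the peaks of tof1, H4.1 and grrA, as bars from first to last base at their match score (y axis). The x axis is the distance from the summit in bp, the shaded area is the peak, and black marks the plus strand. The runs of 66 bp at tof1 and 72 bp at H4.1 lie over the summit, and grrA has 1 site there with a score of 12.1.

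In all 3 peaks at least 1 site lay over the summit itself, with 3 at H4.1, 2 at tof1 and 1 at grrA. A summit under a site occurred in 8 of all 150 peaks (5.33%) and in 6 of the 25 (24.0%), so the 3 genes made up 3 of those 6. This feature was noticed after the sites had been seen and was not tested.

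The number of sites was compared with the other 22 peaks outside the 2 scaffolds. Of these, 13 held at least 1 site, with a median of 3 and a maximum of 15 sites, and 5 held 9 or more. H4.1 ranked 3 of 25 by number of sites, tied with 2 others, and tof1 ranked 6, tied with 1 other. The grrA peak belonged to the 5 peaks with a single site. The run at H4.1 was the longest among the 25 peaks, the longest of the other 22 being 69 bp in peak 1. The tied peak 1 thus resembled H4.1 in its 11 sites as well as in its enrichment. A high enrichment did occur without sites, since the strongest peak (13.6-fold) had none.

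**Figure D4:**
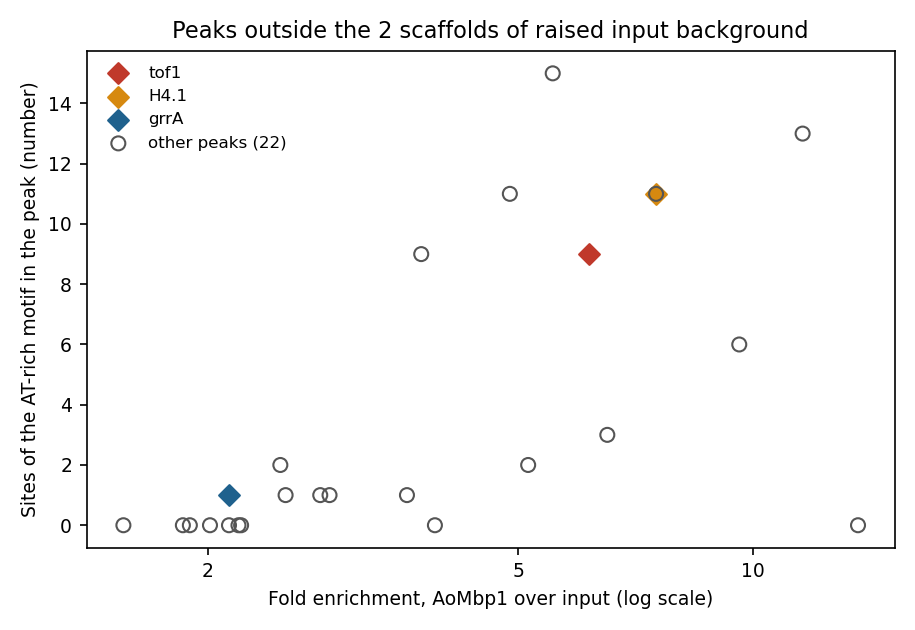
Number of AT-rich sites (y axis) against fold enrichment (x axis, log scale) in the 25 peaks outside the 2 scaffolds of raised input background. H4.1 (11 sites, 7.51-fold, covered by the circle of peak 1) and tof1 (9 sites, 6.15-fold) lie among the peaks with many sites, and grrA (1 site, 2.13-fold) among those with few or none.

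The sites were regularly spaced. On the minus strand, neighbouring sites of H4.1 started 3 to 15 bp apart in 10 steps, and those of tof1 3 to 12 bp apart in 7 steps. All 17 steps were multiples of 3 bp, and 10 of them were exactly 6 bp. These steps all joined sites that overlapped or directly adjoined each other. Of the other 22 peaks, 9 held 2 or more sites. There 45 of 61 steps (73.8%) were multiples of 3 bp and 24 were 6 bp. Those steps were counted between neighbouring sites of the same strand at any distance. The sets of steps are therefore not alike, and their difference was not tested.

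Of the 21 sites in the 3 peaks, 20 were on the minus strand. At H4.1 and tof1, which both lie before the first gene of their scaffold, the T-rich strand therefore ran 5' to 3' toward the near end of the scaffold in 19 of 20 sites. In the other 12 peaks outside the outermost genes that held sites, this was so for 57 of 75 sites (76.0%). The count was 26 of 42 sites (61.9%) in the 7 peaks that lay before the first gene, as tof1 and H4.1 do. It was 31 of 33 (93.9%) in the 5 peaks after the last gene. Sites that overlap in a run are not independent, so the 19 of 20 rests on 2 peaks. Relative to the genes the orientation was not shared, since the T-rich strand was that of the coding direction at H4.1 and the opposite strand at grrA and for 8 of the 9 sites of tof1.

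In base composition the sites were alike. All were picked as matches to the same T-rich motif, so this likeness was largely set by that choice. T made up 75.2% of the site bases at H4.1, 78.5% at tof1 and 80.0% at grrA, beside 79.3% in the sites of all other peaks. G and C together made up 9.70% at H4.1, 7.41% at tof1 and 13.3% at grrA, the last resting on 2 of 15 bases, beside 8.25% elsewhere. Full agreement with the motif at all 15 positions was found at 3 sites of tof1 and 2 of H4.1, beside 14 of the 122 sites of other peaks. The grrA site agreed at 13 positions.

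The peaks also held some sites of identical sequence. A single sequence was found both at tof1 and at H4.1, at 33 and 34 bp before the summit. Of the 9 sequences of tof1, 3 recurred in other peaks, and of the 11 of H4.1, 6 did. H4.1 shared 4 with peak 1, the most with any peak, and tof1 shared 3 each with peaks 1 and 135. The grrA sequence was found in no other peak. How often the site sequences of other peaks recur was not counted. All sites were picked as matches to the same motif, so these counts are not read as particular to the 3 genes.

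None of the 21 sites contained ACGCGT or its core CGCG, both of which read the same on either strand. Among all 199 sites of both motifs, ACGCGT occurred in 0 and CGCG in 4 (2.01%). Of the 143 sites of the AT-rich motif over all peaks, 0 held CGCG, so its absence from the 21 is not particular to them. Sites chosen for matching an AT-rich motif leave little room for these letters, and the peaks were not searched beyond them. Nothing follows from this about ACGCGT in the promoters of the 3 genes.

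Other genes of the passage from G1 into S phase were sought among the 18 assigned genes with a list of 83 names and matching product words. Fork protection and checkpoint genes (11 names) gave tof1, histones (4 names) gave H4.1, and the SCF ubiquitin ligase (11 names) gave grrA. No assigned gene matched the 6 names of MBF and its regulators, the 40 names of replication genes or the 11 names of cyclins and their inhibitors. Only 18 of the 11479 genes in the RefSeq gene table had an assigned peak, so nothing is read from the lists without a match. The list was written with the 3 genes in view, so their presence on it is no finding. Of the 18 genes 11 carry a symbol, and genes without an assigned peak could not be matched by name here.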

How the data were processed

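DAP-seq of 1 AoMbp1 library and 1 input library was analysed, grouped by sample title. The 3 genes and the lists were chosen with earlier results of these data known. The authors' peak list gives the pileup, a signal whose unit and normalization are not stated, and a fold enrichment, a ratio to input, per the file headers. Significance is given there as deposited values of -log10 p-value and, after adjustment, -log10 q-value. The deposited motif table holds a match score, a p-value and a q-value per site. Read counts are from the authors' alignment table: 77019180 of 83494270 AoMbp1 reads and 63020247 of 64573710 input reads mapped. Which peak caller and motif tool were run is not given in the sources used here.

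Input background was recovered as (pileup + 1) / fold enrichment - 1. From it, the Poisson probability matched the deposited -log10 p-value of the 3 peaks within 3.41e-05. The coordinates of all 18 assigned genes equalled those of the RefSeq gene table, which gave neighbours and locus tags. Ranks count strictly higher peaks, and sites merged when they shared a base. The functions were tested on simulated data. Named were the 3 genes, the genes beside their peaks, the peaks next in rank or tied, the 2 assigned genes nearest in log2 fold enrichment outside the 2 scaffolds of raised background, and listed G1/S genes. Peaks 135 and 139 (the strongest) and the further peaks named under other observations were chosen after their values were seen. With 1 library per group there was no test between libraries. Alternatives concerned the ranking value, the peaks ranked, the pseudocount, the promoter length, the motif q-value and overlapping sites. Computations ran in Python 3.11.15 with SciPy 1.17.1, pandas 2.3.3 and NumPy 2.4.6, and figures were drawn with Matplotlib 3.10.9.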

Additional observations from a re-analysis of the deposited data

How the results depend on the processing

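Of 36 alternatives, 21 left their result within its interval or within 1.5 times its count. Ranked by pileup, tof1, H4.1 and grrA stood at 132, 129 and 146 of 150. Ranked by pileup minus background, they stood at 53, 24 and 145, and grrA at 135 by -log10 q. Among the 21 peaks with an assigned gene, the ranks by fold enrichment were 5, 2 and 13. Merging sites that share bases left 2 runs at tof1 and 2 at H4.1, and motif q-values under 0.05 left 0 sites at grrA. Promoters of 1 kb held the peak of 1 gene and promoters of 500 bp that of 0. The nearest gene by distance to gene starts was not run, because the strand of AOL_s00054g337 was not at hand. No paired analysis was possible because each group has 1 library. With no replicate, only counting error could be given, and it is widest relative to its value at grrA.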

Other observations

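The orientation of AT-rich sites in peaks outside the outermost genes of a scaffold was tabulated after the sites of tof1 and H4.1 had been seen, and no test was made. Of the other 12 such peaks with sites, 8 had most of their sites with the T-rich strand running 5' to 3' toward the near scaffold end, and 4 had none that way. Peaks 132, 133, 141 and 143, which lie after the last gene, had all 31 of their sites on the plus strand, the opposite strand to tof1 and H4.1 and the same direction toward the end. Peak 148, also after the last gene, had 2 sites, both on the minus strand. Before the first gene, peaks 1, 2, 135 and 136 had 26 of 28 sites on the minus strand, whereas peaks 130, 131 and 149 had all 14 on the plus strand.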
